A study of Homo sapiens with 18 samples.

Results

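Editing of total RNA was compared between HEK293T cells that expressed YTHDF2-ADAR and HEK293T cells that expressed YTHDF1-ADAR, gene by gene. The genes described are those listed in the authors' editing tables of both constructs, joined on the gene symbol. They number 3999, out of 4547 genes in the YTHDF2-ADAR table, 6858 in the YTHDF1-ADAR table and 8714 in any of the 3 tables of the series. They make up 87.9% of the YTHDF2-ADAR table and 58.3% of the YTHDF1-ADAR table, and 3997 of them carried a single gene ID and the protein coding class.

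YTHDF1 and YTHDF2 are cytoplasmic proteins whose YTH domain binds N6-methyladenosine (m6A), a mark of mRNA placed by the METTL3 and METTL14 methyltransferase complex. YTHDF2 is best known for bringing the CCR4-NOT deadenylase to marked mRNAs, which shortens their life, and YTHDF1 has been described as acting on translation. Fused to an ADAR deaminase, each protein leaves inosines, read as G in place of A, in the RNA it meets, and a gene's number of edited sites and share of edited reads record those encounters.

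YTHDF2-ADAR total RNA and YTHDF1-ADAR total RNA were each sequenced in 3 libraries, and the polysome RNA of the same lines in 3 libraries each. Both lines are HEK293T, a human embryonic kidney line, and both received doxycycline at 1 µg/mL over 24 h to switch on the fusion and cycloheximide at 100 µg/mL over 10 min to hold ribosomes on mRNA. A line without a fusion was not used here, so both values of a gene include whatever the cells' own deaminases edit and the site calls retain. The labels do not say whether a line is a single clone or whether replicates are separate cultures, so the p-values given for expression measure the spread between these libraries only. The editing tables hold 1 value per gene and construct over the replicates, with no depth, so editing differences have no replicate error and no test, and a gene was counted as lower or higher where its ratio passed 1.5-fold.

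The 6 total RNA libraries held from 43291966 to 58048768 counts. Levels are given as normalised counts scaled to library size (CPM). Neurofilament genes known from HEK293T cells were present (NEFM at 295 to 1099 CPM, NEFL at 121 to 321 CPM), while PTPRC, CD3E, ALB and INS, markers of blood, liver and pancreas, lay at or below 0.0943 CPM in each library. Of 12 such markers, COL1A1 (5.76 to 10.0 CPM) and GFAP (1.5 to 2.49 CPM) were the highest, and the other 10 stayed at or below 0.479 CPM. The other HEK293T markers read were INA (34.5 to 50.5 CPM), PAX2 (3.98 to 5.75 CPM) and LHX1 (1.79 to 2.61 CPM). PAX2 and LHX1 were thus below COL1A1, and LHX1 was near GFAP. Long noncoding RNAs took 19.1%, 14.1% and 14.3% of the counts in YTHDF2-ADAR replicates 1, 2 and 3, and 25.7%, 15.5% and 13.8% in those of YTHDF1-ADAR. Replicate 1 stood apart in both lines, and more so in YTHDF1-ADAR. The editing values could not be recomputed without these libraries, since the tables give no value per library.

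ADARB1, YTHDF1 and YTHDF2 counts differed between the lines. ADARB1, which encodes the deaminase ADAR2, stood at 40.5, 38.7 and 37.5 CPM in the YTHDF2-ADAR total RNA libraries and at 268, 237 and 238 CPM in the YTHDF1-ADAR libraries. Each YTHDF2-ADAR library was thus below each YTHDF1-ADAR library, with a log2 fold change of -2.67 ± 0.14 (SE; edgeR quasi-likelihood test, adjusted p = 1.34e-08). ADAR, which encodes ADAR1, was at 305 ± 9.46 CPM in YTHDF2-ADAR and 280 ± 13.3 CPM in YTHDF1-ADAR total RNA (SD, n = 3 each), and did not pass the test (0.12 ± 0.09, adjusted p = 0.889 by edgeR). YTHDF2 counts were 276, 288 and 260 CPM in its own line against 156, 136 and 150 CPM in YTHDF1-ADAR cells, and YTHDF1 counts were 88.8, 78.8 and 82.0 CPM in YTHDF2-ADAR cells against 445, 358 and 372 CPM in its own line. The counts do not separate transgene from endogenous transcripts. The part of the ADARB1 level in the editing differences below was not tested.

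**Figure D1:**
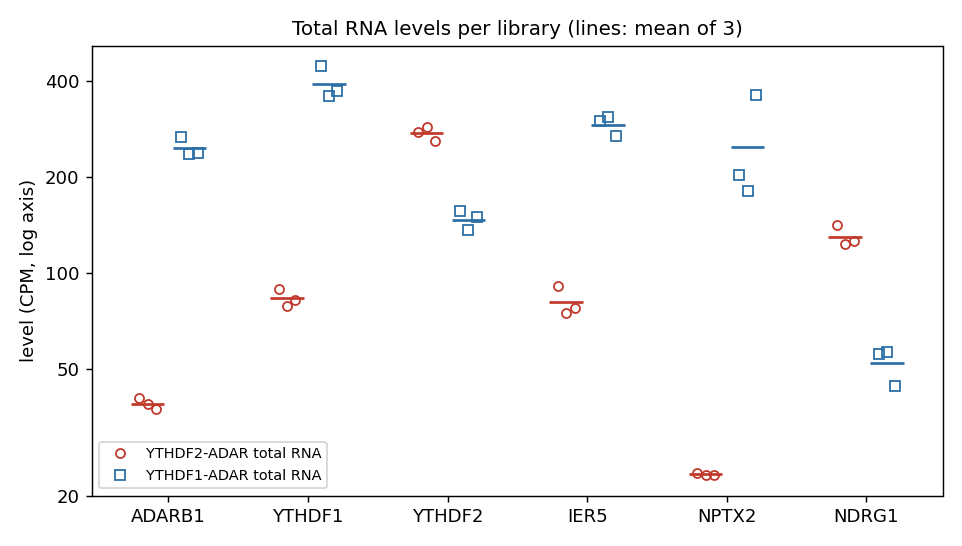
Total RNA levels of 6 genes in CPM (log axis) in each of the 3 YTHDF2-ADAR libraries (red circles) and 3 YTHDF1-ADAR libraries (blue squares), with the mean of each group as a line. ADARB1 and YTHDF1 were lower in every YTHDF2-ADAR library, with ADARB1 at 37.5 to 40.5 CPM against 237 to 268 CPM.

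Editing per site was lower in YTHDF2-ADAR than in YTHDF1-ADAR total RNA for most genes. Editing per site is the authors' editing score divided by the number of sites, in percent. It had a median of 1.26% in YTHDF2-ADAR and 1.86% in YTHDF1-ADAR total RNA over the 3751 genes with a score above 0 in both, with 25th to 75th percentiles of 0.829% to 2.19% and 1.20% to 3.10%. The median log2 ratio, YTHDF2-ADAR over YTHDF1-ADAR, was -0.48, a ratio of 0.719, and 2806 genes (74.8%) lay below equality. Past 1.5-fold, 1630 genes were lower (43.5%) and 374 were higher (9.97%). Of the remaining genes, 112 lacked a total RNA score in at least 1 construct, 101 were listed at 0 for YTHDF2-ADAR alone, 29 at 0 for YTHDF1-ADAR alone and 6 at 0 for both.

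The ranking of genes was partly shared. Across genes, which are not independent replicates, editing per site had Spearman's rho of 0.55 and Pearson's r of 0.64 (on log2 values) between the constructs. At the top of the scale, 127 genes reached at least 10% per site in YTHDF2-ADAR and 133 in YTHDF1-ADAR total RNA, and 92 did so in both. At least 50% per site was reached by 19, 21 and 15 genes in the same order. The score itself, not divided by the number of sites, differed more, with medians of 0.0440 in YTHDF2-ADAR and 0.103 in YTHDF1-ADAR and a median log2 ratio of -0.85.

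**Figure D2:**
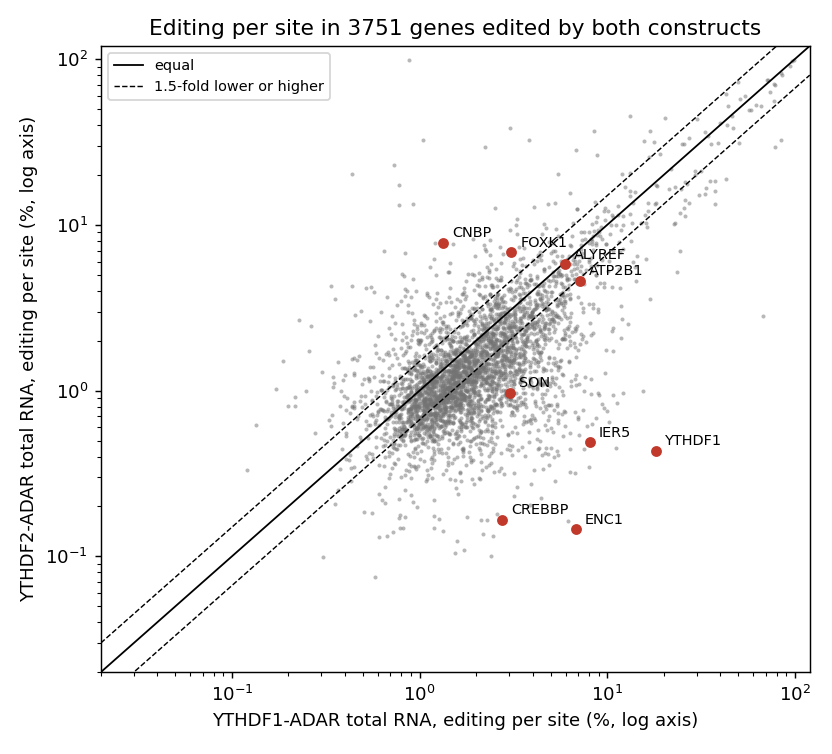
Editing per site in total RNA (%, both axes log) of the 3751 genes with a score above 0 in both constructs, YTHDF2-ADAR on the vertical and YTHDF1-ADAR on the horizontal axis, 1 grey point per gene, with some named genes in red. Most points lie below the solid line of equality, with 1630 below the lower dashed line (1.5-fold lower) and 374 above the upper one.

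Fewer sites were also listed for YTHDF2-ADAR. The 3999 genes held 20705 sites in the YTHDF2-ADAR table and 31472 in the YTHDF1-ADAR table, so the first sum was 65.8% of the second. The median gene had 3 sites for YTHDF2-ADAR and 5 for YTHDF1-ADAR, and 1085 and 561 genes had a single site. Site number was lower for YTHDF2-ADAR in 2365 genes (59.1%), equal in 846 (21.2%) and higher in 788 (19.7%). Among 779 genes with the same number of sites and a ratio, the median log2 ratio of editing per site was -0.38, and 36.6% were lower and 12.6% higher. Among 751 genes with more YTHDF2-ADAR sites the median was -0.46, and among 2221 with fewer it was -0.53. The tables do not give site positions, so equal numbers need not be the same sites.

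Most of the genes with the most sites, summed over both constructs, had similar numbers for each. Ranking by this sum among genes listed for both constructs favours genes with many sites in each, so the similarity is partly built in. ATP2B1, a plasma membrane calcium pump, had 101 sites for YTHDF2-ADAR and 104 for YTHDF1-ADAR, edited at 4.60% and 7.18% per site. ALYREF, an mRNA export adaptor, had 87 and 90 sites at 5.78% and 5.94%, and CHD3, a chromatin remodeller of the NuRD complex, 72 and 68 sites at 1.30% and 1.69%. The spectrins SPTAN1 and SPTBN1, which form the membrane skeleton, had 92 and 66 YTHDF2-ADAR sites against 99 and 74 YTHDF1-ADAR sites. KIF1B, a kinesin motor, had 59 in each, NCKAP1, a subunit of the WAVE actin regulator, 66 and 64, CLTC, the clathrin heavy chain, 54 and 62, while MYH10, a non-muscle myosin, had 64 and 88. In contrast FOXK1, a forkhead transcription factor with the most sites of all genes for YTHDF1-ADAR, had 5 for YTHDF2-ADAR and 110 for YTHDF1-ADAR.

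The 5 largest site losses included FOXK1. The others were SPEN, a nuclear repressor with RNA-binding domains (4 sites for YTHDF2-ADAR against 78 for YTHDF1-ADAR), TNRC18 (1 against 67), SON, a splicing cofactor of nuclear speckles (15 against 76), and FAT1, a giant protocadherin (1 against 59). In SPEN editing averaged 0.954% over the 4 YTHDF2-ADAR sites and 3.99% over the 78 YTHDF1-ADAR sites in total RNA, and in SON 0.970% over 15 and 3.04% over 76. FOXK1 went the other way, with 6.84% over its 5 YTHDF2-ADAR sites and 3.09% over its 110 YTHDF1-ADAR sites. Their total RNA levels were close: FOXK1 averaged 277 CPM in each line, SPEN 585 in YTHDF2-ADAR and 592 in YTHDF1-ADAR, and none of the 5 passed the test of expression, the lowest adjusted p by edgeR being 0.548, for FAT1. Gains were far smaller: TTC7B had 25 sites for YTHDF2-ADAR and 12 for YTHDF1-ADAR, UCK2, a uridine-cytidine kinase, 24 and 14, BTRC, a substrate receptor of SCF ubiquitin ligases, 19 and 10, and PHF14 13 and 4.

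**Figure D3:**
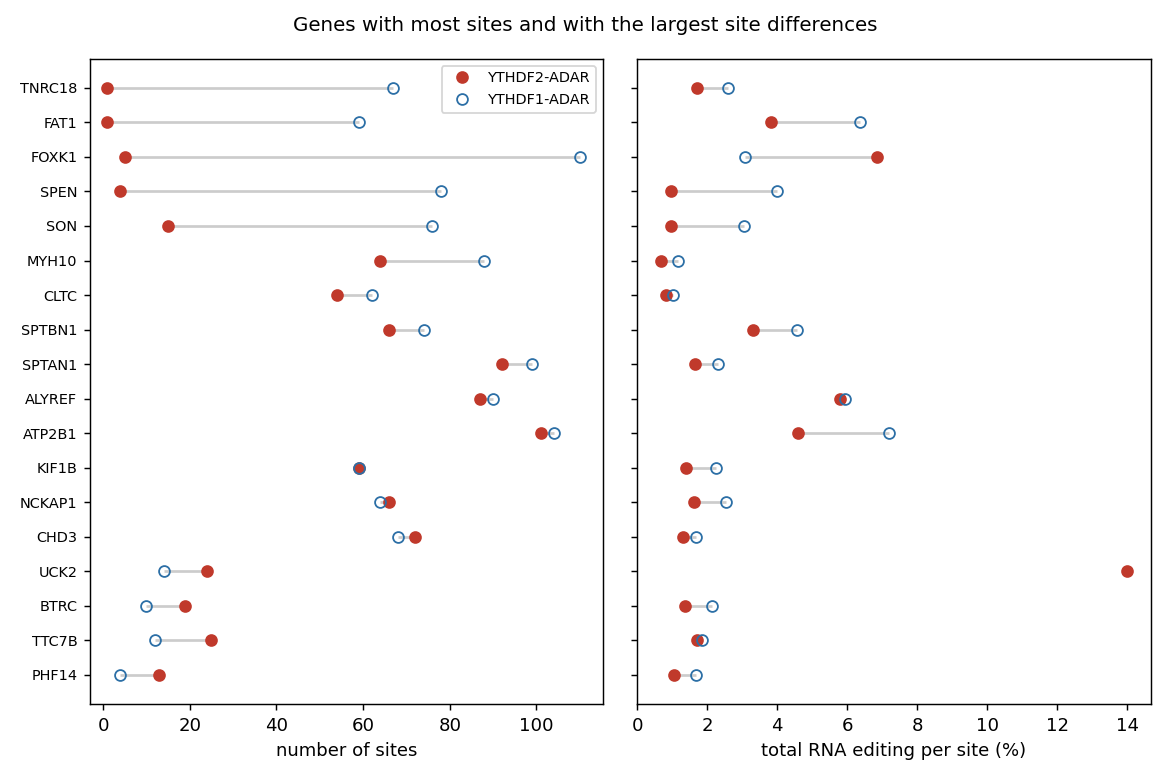
Number of sites (left) and total RNA editing per site in percent (right) of genes with most sites or the largest site differences, YTHDF2-ADAR as filled red and YTHDF1-ADAR as open blue circles, ordered by share of sites from low (top) to high. TNRC18, FAT1, FOXK1, SPEN and SON stand at 1 to 15 YTHDF2-ADAR sites against 59 to 110 for YTHDF1-ADAR, and UCK2 has no YTHDF1-ADAR total RNA score.

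The share of sites listed for YTHDF2-ADAR varied widely among genes with many YTHDF1-ADAR sites. For the 322 genes with at least 20 YTHDF1-ADAR sites, a limit set after the values were seen, YTHDF2-ADAR sites were expressed as a share of YTHDF1-ADAR sites. The limit was set on YTHDF1-ADAR sites alone, which by itself favours shares below 100%. The sites of the 2 constructs need not be the same ones. The share was at or below 25% in 101 genes (31.4%), above 25% and up to 50% in 50, above 50% and up to 75% in 48, above 75% and up to 100% in 104 (32.3%) and above 100% in 19. Bins of 10 percentage points held, from 0 to 100%, 48, 35, 25, 23, 14, 21, 18, 27, 35 and 39 genes. The 101 genes at or below 25% had 346 sites for YTHDF2-ADAR and 3318 for YTHDF1-ADAR. Their difference of -2972 sites was 27.6% of the whole difference of -10767 over 3999 genes.

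**Figure D4:**
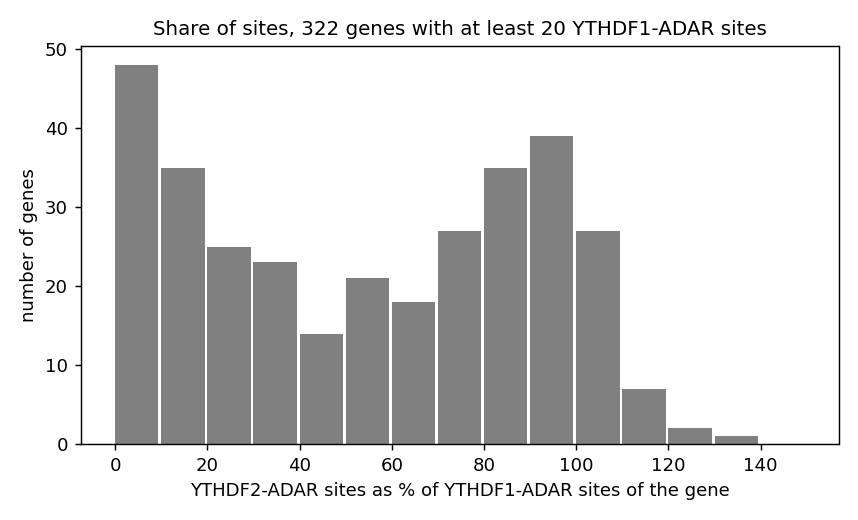
Number of genes by YTHDF2-ADAR sites as a percentage of YTHDF1-ADAR sites, in bins of 10 percentage points, for the 322 genes with at least 20 YTHDF1-ADAR sites. The lowest bin holds 48 genes and that between 90% and 100% holds 39, while the bins between 20% and 80% hold 14 to 27 each.

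Editing per site in total and polysome RNA was then described by share of sites. Both ratios divide by the site numbers that define the share, so they are not independent of it. In the 101 genes with a site share at or below 25%, editing per site was lower for YTHDF2-ADAR in both fractions: medians were 1.15% for YTHDF2-ADAR against 3.09% for YTHDF1-ADAR in total RNA, and 1.44% against 3.25% in polysome RNA. The median log2 ratio was -1.19 in total and -1.25 in polysome RNA, and 72 of 98 genes with a ratio were lower in total RNA and 73 of 101 in polysome RNA. In the 104 genes with a share above 75% and up to 100%, total RNA gave medians of 1.95% for YTHDF2-ADAR against 2.85% for YTHDF1-ADAR, while polysome RNA gave 1.84% against 1.96%. Their median log2 ratio was -0.51 in total and -0.07 in polysome RNA, and 46 of 104 were lower in total RNA but 4 of 104 in polysome RNA. The 19 genes above 100% had ratios of -0.60 and -0.05.

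From total to polysome RNA, YTHDF1-ADAR editing per site changed by a median of 0.04 (log2) in the genes with a share at or below 25%, and by -0.47 in those above 75% and up to 100%. For YTHDF2-ADAR both medians were -0.01. Median total RNA levels were 88.4 CPM in YTHDF2-ADAR and 97.9 CPM in YTHDF1-ADAR cells in the low-share genes, and 63.1 and 60.3 CPM in the genes above 75% and up to 100%, so the low-share genes had the higher medians. Median exonic length was 8208 and 7687 bases. GC content of the 300 bases around the transcription start, from RefSeq (GRCh38.p14), was 72.3% at the median over 84 low-share genes with an entry and 67.0% over 93 genes above 75% and up to 100%, with 25th to 75th percentiles of 63.6% to 77.7% and 61.0% to 72.7%. In the YTHDF3-ADAR table, 92 of the 101 low-share genes were listed, with a median of 7 sites, against 3 for YTHDF2-ADAR and 28 for YTHDF1-ADAR, while the 104 genes had medians of 34 sites for YTHDF3-ADAR, 22 for YTHDF2-ADAR and 26 for YTHDF1-ADAR.

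**Figure D5:**
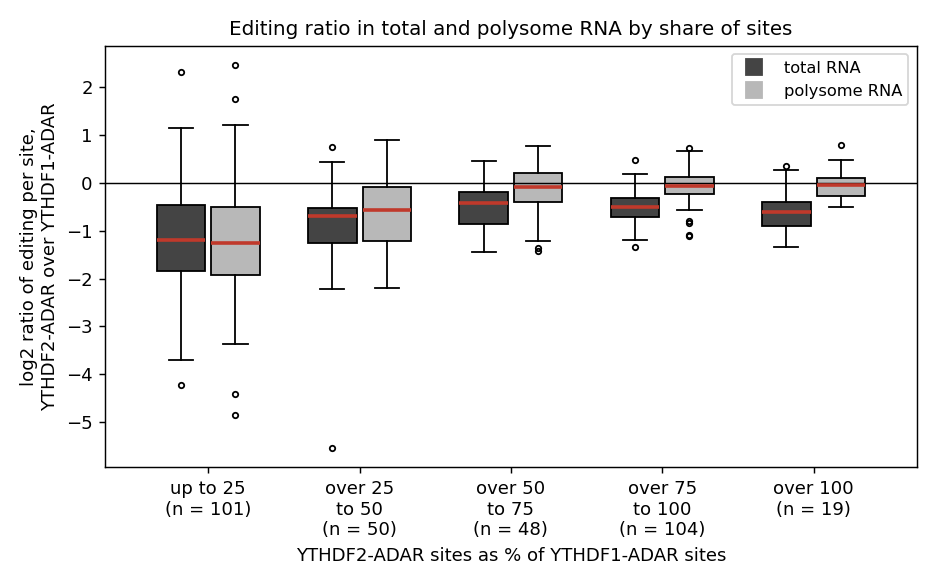
Log2 ratio of editing per site, YTHDF2-ADAR over YTHDF1-ADAR, in total RNA (dark) and polysome RNA (light) for the 322 genes with at least 20 YTHDF1-ADAR sites, by share of sites. Boxes run between the 25th and 75th percentiles, red lines are medians, whiskers reach 1.5 times the box length and circles are genes beyond. Medians are -1.19 and -1.25 at shares up to 25%, and -0.51 and -0.07 above 75% and up to 100%.

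Over all genes the polysome ratio was likewise nearer to equality. The median log2 ratio in polysome RNA was -0.11 over 3965 genes, with 1095 lower (27.6%) and 618 higher (15.6%). Of 3717 genes with a ratio in both fractions, 2351 (63.2%) had the lower ratio in total RNA. Of 1618 of these genes lower in total RNA, 657 were also lower in polysome RNA, 793 were within 1.5-fold and 168 were higher. Of 363 higher in total RNA, 145 were higher in polysome RNA and 58 were lower. The log2 ratios of the fractions had Pearson's r of 0.45 across these genes, which share their site lists, and 0.32 over the 1274 with at least 5 sites in both constructs.

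Among genes with at least 5 sites for each construct, the lowest total RNA ratio was that of ENC1, an actin-binding protein of the ectoderm and neural cells, at 0.146% over 13 sites in YTHDF2-ADAR and 6.78% over 40 sites in YTHDF1-ADAR. Its polysome RNA had 7.77% and 4.99%, and its level was 15.5, 14.8 and 14.6 CPM in YTHDF2-ADAR against 28.7, 27.0 and 23.0 CPM in YTHDF1-ADAR total RNA (log2 fold change -0.81 ± 0.18, adjusted p = 0.0221 by edgeR). CRMP1, a neuronal microtubule-associated phosphoprotein, had 0.321% and 6.36% in total RNA but 7.93% and 2.16% in polysome RNA. RERE, a nuclear corepressor, had 0.181% and 2.59% in total RNA but 2.04% and 0.303% in polysome RNA. These ratios changed sides between fractions.

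Other low ratios held in both fractions. HEXIM1, an inhibitor of the elongation kinase P-TEFb, had 0.703% in YTHDF2-ADAR and 4.92% in YTHDF1-ADAR total RNA, and 0.833% and 6.52% in polysome RNA. CRK, a signalling adaptor, had 0.723% and 5.74%, then 0.573% and 4.61%. HNRNPA2B1, an RNA-binding protein counted among m6A readers, had 0.263% and 3.31%, then 0.907% and 2.99%. The others of the 10 lowest were LMBRD1, PLCL2, MAP4K3 and OXR1, with total RNA log2 ratios from -3.79 to -2.80 and polysome ratios from -0.27 to 0.44. Their levels were low, at 8.93, 15.8, 19.4 and 19.5 CPM in YTHDF2-ADAR total RNA. HEXIM1, CRK and HNRNPA2B1 were at 60.6, 90.7 and 1123 CPM there. RERE, whose ratio changed sides, was not low, at 76.0 CPM. The part of read depth was not tested.

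The opposite end held few genes, as 45 of 1275 genes with at least 5 sites in both were higher. ARHGAP44, a GTPase-activating protein, led with 3.94% in YTHDF2-ADAR and 0.571% in YTHDF1-ADAR total RNA, and STAT6, a cytokine-activated transcription factor, had 2.85% and 0.452%. Neither was higher in polysome RNA, where they had log2 ratios of -0.55 and -0.67. Their levels were 16.7 and 5.25 CPM in YTHDF2-ADAR total RNA. CNBP, a nucleic acid binding zinc knuckle protein, had 7.78% over 16 sites against 1.33% over 9 in total RNA and 7.18% against 0.729% in polysome RNA. DIAPH1, an actin nucleator, EXOSC2, a subunit of the RNA exosome, and MFSD4B were also higher in both fractions, with total RNA ratios of 1.61, 1.48 and 1.47 and polysome ratios of 1.65, 1.11 and 1.93. SLC35F6, RABGAP1 and GTF2H2 had total RNA ratios of 1.64, 1.60 and 1.34, against -0.07, -0.07 and 0.54 in polysome RNA. Their levels were 59.2, 38.3 and 119 CPM in YTHDF2-ADAR total RNA.

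The transcripts of the m6A system were read next, beside the 43.5% lower, 9.97% higher and median of -0.48 of all genes in total RNA. In polysome RNA the values of all genes were 27.6% lower, 15.6% higher and a median of -0.11. A list median nearer to equality in polysome RNA is thus shared with all genes. Of 13 writers and erasers, 7 were edited by both constructs, and of the 5 with a ratio 4 were lower and none higher, with a median of -1.20. In polysome RNA 3 of 7 were lower and 3 higher, with a median of -0.40. RBM15B, an adaptor of the methyltransferase complex, had 2 sites at 1.06% in YTHDF2-ADAR and 49 sites at 2.44% in YTHDF1-ADAR. METTL3, the catalytic subunit, had 5 and 7 sites at 0.715% and 1.41% in total RNA but 0.578% and 0.312% in polysome RNA, and FTO, a demethylase, 5 sites in each at 0.742% and 3.12%. VIRMA, a scaffold of the complex, was listed at 0 for YTHDF2-ADAR and at 1.03% for YTHDF1-ADAR.

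Of 17 readers, 13 were edited by both, with 6 lower, none higher and a median of -0.53. In polysome RNA 4 of these 13 were lower and 1 higher, with a median of 0.01. YTHDF1 itself had 1 site at 0.434% in YTHDF2-ADAR cells and 19 sites at 18.2% in YTHDF1-ADAR cells. YTHDF3 had 1 site at 0.448% and 11 sites at 2.08%, and PRRC2A 13 at 0.731% and 23 at 1.96%. HNRNPC, which binds RNA opened by m6A, differed little, with 49 sites at 10.4% and 43 at 8.68%, as did FXR2, a relative of FMR1, at 1.18% and 1.17%. ADARB1, the 1 of 5 deaminase genes edited by both, had 4 sites at 12.7% in YTHDF2-ADAR and 20 at 9.69% in YTHDF1-ADAR. Its level also differed, at 38.9 and 247 CPM, and the source of its edited reads was likewise not tested.

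The RNA decay and silencing machinery was mixed. Of 12 deadenylation and decapping genes with a ratio, 4 were lower and 2 higher (median -0.26): CNOT1, the scaffold of CCR4-NOT, stood at 0.875% in YTHDF2-ADAR and 0.866% in YTHDF1-ADAR, and CNOT2 at 0.811% and 1.47%, with polysome values of 0.884% and 0.688%. Of 5 nonsense-mediated decay genes 4 were lower and 1 higher (median -0.64), with the helicase UPF1 at 1.40% over 4 sites and 2.81% over 13. Of 6 microRNA machinery genes 3 were lower and 1 higher (median -0.78). All 6 had fewer sites, such as TNRC6A, a GW182 silencing protein, with 3 and 20. Fewer sites were also listed for 59.1% of all genes, and the difference from them was not tested. Stress granule and P-body genes had 3 lower and 3 higher among 11 (median -0.21), and G3BP2, a stress granule nucleator, was at 1.06% and 1.23%.

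Splicing, translation and respiratory genes had total RNA medians from -0.71 to 0.16. Over all genes the median was -0.48 in total and -0.11 in polysome RNA. SR proteins and CLK kinases had 4 lower and 2 higher of 12 (median -0.38) in total RNA, but 1 lower and 5 higher of 11 (median 0.44) in polysome RNA. CLK1, a kinase of SR proteins, had 13 sites in each at 1.5% and 2.24%. The hnRNP genes had 7 lower and 2 higher of 13 (median -0.70 in total and 0.42 in polysome RNA). Initiation factors had 6 lower and none higher of 11 (median -0.71) in total RNA, but 1 lower and 1 higher of 12 (median -0.05) in polysome RNA. EIF4A2, an RNA helicase of initiation, was at 2.86% and 3.13% with 11 sites in each. Of 8 cytosolic ribosomal protein genes 2 were lower and none higher (median 0.16) in total RNA, but 4 were lower and none higher (median -0.48) in polysome RNA. Of 17 respiratory chain genes 9 were lower and 1 higher (median -0.61 in total and 0.09 in polysome RNA).

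Chromatin regulators differed in how often sites were fewer. Histone lysine methyltransferases had 10 lower and 1 higher of 18 (median -0.72) and fewer YTHDF2-ADAR sites in 17 of 20, against 59.1% of all genes. KMT2D, an H3K4 methyltransferase, had 9 sites at 0.664% in YTHDF2-ADAR and 61 at 2.68% in YTHDF1-ADAR, while EHMT2, an H3K9 methyltransferase, had 22 at 1.22% and 27 at 2.00%. Acetyltransferases and bromodomain genes had 9 lower and 1 higher of 18 (median -0.65), and fewer sites in 12 of 19. The coactivators CREBBP and EP300 had 1 YTHDF2-ADAR site each, at 0.166% and 0.600%, against 12 and 16 YTHDF1-ADAR sites at 2.76% and 1.80%. Remodellers had 9 lower and 1 higher of 16 (median -0.69) and fewer sites in 8 of 16, among them ARID1A with 20 sites at 0.805% and 33 at 2.18%. Of 57 zinc finger genes with symbols starting in ZNF, 25 were lower and 6 higher (median -0.47), and 44 of 66 had fewer sites, such as ZNF629 with 2 and 56.

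The lowest total RNA medians were those of nuclear kinases, of cyclins and their kinases, and of BMP, TGF-beta and SMAD genes. The m6A writers and erasers were close to the last of these, at -1.20. Signalling genes did not share this as a class, as Wnt genes had a median of -0.40. The HIPK, DYRK and other nuclear kinases had 9 lower and none higher of 11, with a median of -1.60 in total and -0.98 in polysome RNA. DYRK2 had 4 sites at 1.34% in YTHDF2-ADAR and 18 at 5.04% in YTHDF1-ADAR, and CDK13, a transcriptional kinase, 4 at 0.494% and 15 at 1.89%. BMP, TGF-beta and SMAD genes had 7 lower and none higher of 9 (median -1.23) in total RNA, but 3 lower and 3 higher of 9 (median -0.44) in polysome RNA, with the corepressor SKI at 0.710% over 7 sites and 3.19% over 33, and the effector SMAD3 at 2.15% over 1 and 6.24% over 13. Cyclins and their kinases had 4 lower and 1 higher of 6 (median -1.60) in total RNA, and 4 lower and 2 higher of 7 (median -0.70) in polysome RNA. In total RNA E2F3, an S-phase transcription factor, was at 1.60% and 6.78%, and CDK4, a G1 kinase, at 5.87% and 3.17%. Medians over so few genes rest on single members.

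The remaining lists had total RNA medians from -0.72 to 0.45. Cullin ligases had 10 lower and none higher of 13 (median -0.72), and ubiquitin-conjugating enzymes 7 lower and 1 higher of 15 (median -0.57). Importins and exportins had 3 lower and 1 higher of 10 (median -0.51), RAB GTPases 6 lower and none higher of 17 (median -0.48), Wnt genes 6 lower and 1 higher of 13 (median -0.40), and p53 genes 1 lower and 1 higher of 3 (median 0.04). In polysome RNA the RAB genes had 1 lower and 4 higher of 17 (median -0.05). The p53 genes had 2 lower and none higher of 3 there (median -0.63). RAB2A, a GTPase of early secretion, had 27 sites in each at 3.30% in YTHDF2-ADAR and 4.17% in YTHDF1-ADAR, and its level was lower in YTHDF2-ADAR cells (log2 fold change -0.57 ± 0.09, adjusted p = 0.00291 by edgeR). CTNNB1, which encodes beta-catenin, had 21 at 1.38% and 27 at 1.71%. Natural ADAR recoding targets had 8 lower and none higher of 12 (median -0.64), with CYFIP2, an actin regulator recoded by ADAR2, at 2.43% over 33 sites and 4.67% over 39. Transcripts with inverted Alu repeats had 1 lower and 3 higher of 7 (median 0.45), and double-stranded RNA sensing genes 1 lower and 3 higher of 7 (median -0.27). In polysome RNA the former had 2 lower and 1 higher (median -0.19) and the latter 1 lower and none higher (median 0.28). MAVS, an adaptor of RNA sensing in both of these lists, was at 3.96% over 1 site in YTHDF2-ADAR and 1.72% over 11 in YTHDF1-ADAR total RNA, but at 0.397% and 1.40% in polysome RNA. Its level was lower in YTHDF2-ADAR cells (-0.60 ± 0.11, adjusted p = 0.00583 by edgeR).

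Expression of the edited genes differed little between the lines. Of 3970 genes tested, 29 were higher (0.730%) and 67 lower (1.69%) in YTHDF2-ADAR than in YTHDF1-ADAR total RNA, by the edgeR quasi-likelihood test at an adjusted p under 0.05, against 0.545% higher and 1.28% lower of all 26804 genes tested. The median log2 fold change was 0.01. Leaving out any 1 of the 6 total RNA libraries gave 12 to 14 higher and 31 to 48 lower, each of the 6 more than 1.5-fold below 29, and the fit of these 6 libraries alone gave 65 and 147. Across genes the ratio of editing per site had Spearman's rho of -0.08 (n = 3726) with the expression change, and the ratio of site numbers 0.03 (n = 3970), as descriptions over genes that share their libraries. Among the 3636 genes with no expression call, 1582 were lower and 362 higher in editing per site.

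The genes with the largest expression changes had varied editing. IER5, an immediate early gene, stood at 91.1, 74.7 and 77.5 CPM in YTHDF2-ADAR and at 299, 308 and 269 CPM in YTHDF1-ADAR total RNA (log2 fold change -1.85 ± 0.12, adjusted p = 2.54e-07 by edgeR), with no overlap, and was edited at 0.488% over 2 sites and 8.08% over 9. NPTX2, a secreted neuronal pentraxin, fell to 23.6, 23.2 and 23.3 CPM in YTHDF2-ADAR, against 203, 181 and 362 CPM in YTHDF1-ADAR cells (-3.41 ± 0.29, adjusted p = 4.52e-06 by edgeR), while its editing was 0.941% and 1.15%. NDRG1, a stress-responsive gene, rose to 141, 123 and 126 CPM, against 55.6, 56.3 and 44.1 CPM (1.32 ± 0.21, adjusted p = 0.00183 by edgeR), with 1 site in each line at 0.858% and 0.826%. In each of these genes the libraries of the lines did not overlap, which their choice by called expression change favours. The share of all tested genes without overlap was not counted.

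KLHL9, a cullin 3 adaptor, and MTAP, an enzyme of methionine salvage, each rose by 0.75 (log2; SE 0.13 and 0.08, adjusted p = 0.00348 and 4.87e-05 by edgeR). KLHL9 editing was 0.930% over 11 sites in YTHDF2-ADAR and 5.28% over 16 in YTHDF1-ADAR. CITED1, a transcriptional coregulator (0.88 ± 0.18, adjusted p = 0.0174), and ARC, a neuronal immediate early gene (0.85 ± 0.21, adjusted p = 0.0453), were higher, and CEBPD, a bZIP transcription factor, lower (-1.53 ± 0.28, adjusted p = 0.00592), all by edgeR. ARC lost its call without any 1 of 5 libraries, all but YTHDF2-ADAR replicate 1, with adjusted p of 0.0532 to 0.290. CITED1 lost it without YTHDF1-ADAR replicate 1 or 3 or YTHDF2-ADAR replicate 1 or 3 (adjusted p of 0.0568 to 0.1), and CEBPD without YTHDF2-ADAR replicate 2 or 3 (0.0565 and 0.0508).

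YTHDF3-ADAR values of the same genes give a further point of comparison, side by side and untested. Of the 3999 genes, 3817 were in the YTHDF3-ADAR table. There their median site number was 8, against 3 for YTHDF2-ADAR and 5 for YTHDF1-ADAR. Over the 3714 genes with a total RNA score in all 3, medians of editing per site were 1.93% for YTHDF3-ADAR, 1.22% for YTHDF2-ADAR and 1.84% for YTHDF1-ADAR.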

How the data were processed

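Total and polysome RNA of HEK293T cells with YTHDF2-ADAR or YTHDF1-ADAR was analysed, with 3 libraries per group, inside a fit of all 18 libraries of 6 groups. STAR 2.7.7, featureCounts 2.0.1, DESeq2 and the GRCh38 build are named per the submitters' processing notes. The authors deposited raw counts by gene. Their strand setting was not stated in the sources used here. Besides 60675 human gene rows there was 1 other row, which was left out, with at most 1.48e-05% of any library.

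Each of the authors' editing tables gives, for every gene, a site number, a score in total and in polysome RNA that never exceeds the site number, and an adjusted p-value by the authors for polysome against total RNA, not used here. Site calling, filters, pooling over replicates and read depth were not stated in the sources used here, so editing has no interval and no test. Editing per site is the score divided by the site number. How the score is built over sites was also not stated. Missing scores stayed missing, and a score of 0 got no fold.

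The counts were tested with edgeR 4.0.16 in R 4.3.3: filterByExpr with a minimum count of 10, leaving 26804 genes, TMM factors, a robust quasi-likelihood fit, and Benjamini-Hochberg adjustment over all tested genes at 0.05. SE is the log2 fold change over the root of F. DESeq2 1.42.0 was an alternative, and the edgeR fit was tested on simulated data. The 2 symbols with more than 1 gene ID were left out of expression. No replicate pair agreed within sampling noise (lowest chi-square over its degrees of freedom 6.25).

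The genes and the 28 gene lists were chosen with earlier results of these data known. Named genes are the 10 with most sites, the 10 highest and 10 lowest ratios among genes with at least 5 sites in both, the 5 largest site gains and losses, the 5 highest and lowest expression changes among those called, up to 4 members of each list by site number, the 5 with most sites in either table alone, and the YTHDF and ADAR genes. Some genes that this rule names are not reported here.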

Additional observations from a re-analysis of the deposited data

Results flagged for a closer look

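In 7 named genes with at least 5 sites in both constructs, editing per site lay past 1.5-fold on opposite sides in total and in polysome RNA. The difference between fractions was not tested, since each value is 1 number per construct. BMPR2, a BMP receptor, had a log2 ratio (YTHDF2-ADAR over YTHDF1-ADAR) of 1.05 in polysome and -1.83 in total RNA. CRMP1 had 1.88 and -4.31, ENC1 0.64 and -5.54, METTL3 0.89 and -0.98, and RERE 2.75 and -3.84. MDM4, an inhibitor of p53, had -0.65 in polysome and 0.59 in total RNA, and STAT6 had -0.67 and 2.66. Total RNA levels of CRMP1, ENC1 and STAT6 were low, at 14.7, 15.0 and 5.25 CPM in YTHDF2-ADAR and 18.9, 26.2 and 6.16 CPM in YTHDF1-ADAR cells, and the part of read depth was not tested.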

How the results depend on the processing

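The median log2 ratio of editing per site was -0.50, -0.51 and -0.51 with at least 3, 5 and 10 sites in both constructs, -0.85 for the undivided score, -0.11 for the polysome score and -0.07 for that score with at least 5 sites, and 0.00, by construction, when centred. Counts of lower and higher genes were 861 and 105, 552 and 45, and 217 and 6 at those minimums, where fewer genes remain, 926 and 206 at 2-fold, 856 and 787 when centred, 285 and 98 with equal site numbers, 878 and 182 above the median level, 201 and 111 for the polysome score with at least 5 sites, and 618 higher for the polysome score. Centring thus removes the excess of lower genes. In alternatives chosen after seeing the data, as was that polysome minimum, with at least 10 or 30 YTHDF1-ADAR sites, 260 of 1046 and 49 of 118 genes had a share of 25% or less, and 97 of 310 without expression calls. Joining on gene IDs could not be run, as the editing tables hold symbols only.

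Expression counts of the edited genes were 65 higher and 147 lower in a fit of the 6 libraries, 48 and 105 by DESeq2, and 34 lower without normalization factors. With the replicate block there were 122 and 194. Deviations from the group mean in same-numbered libraries had r of 0.73, -0.14 and 0.19. YTHDF2-ADAR replicate 2 and YTHDF1-ADAR replicate 3 had 0.75. With 3 libraries per group these values depend on each other, so whether the number pairs libraries could not be told. Leaving out 1 library gave 12 to 14 higher and 31 to 48 lower. The causes were not tested.

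Signs turned for called genes with the polysome score in APC (0.13), ARHGAP44 (-0.55), BMPR2 (1.05), BTRC (0.11), CLK4 (0.44), CNOT2 (0.36), CRMP1 (1.88), EIF5B (0.29), ENC1 (0.64), LMBRD1 (0.44), MAP4K3 (0.07), MAVS (-1.82), MDM4 (-0.65), METTL3 (0.89), NDUFA6 (0.51), OXR1 (0.39), PHF14 (0.64), RAB14 (0.20), RAB7A (0.14), RABGAP1 (-0.07), RBL2 (0.11), RERE (2.75), RPL14 (0.07), SLC35F6 (-0.07), STAT6 (-0.67) and UPF2 (0.39). Those at 0.07 or -0.07 were close to equality. ZNF460 went to equality (0.00), with 1.65% in polysome RNA of each construct. With the undivided score signs turned in AGO2 (-1.67), BRD8 (0.34), BTRC (0.27), FOXK1 (-3.32), MAVS (-2.26), PHF14 (1.02) and ZNF276 (-1.97).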

Other observations

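Genes listed for a single construct of the pair were described by their values. The YTHDF2-ADAR table held 548 genes absent from the YTHDF1-ADAR table, with a median of 1 site and 0.961% editing per site, and 411 of them (75%) were in the YTHDF3-ADAR table. The YTHDF1-ADAR table held 2859 genes absent from the YTHDF2-ADAR table, with a median of 2 sites and 2.22% per site, and 1506 of them (52.7%) were in the YTHDF3-ADAR table. PRKCA, a protein kinase C, had the most sites among the YTHDF2-ADAR genes, at 8, followed by GTF2B, a general transcription factor, with 6, ANLN and CLNS1A with 5 and AK1 with 4.

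The YTHDF1-ADAR genes reached far higher. LRRC14 and PUSL1 had 83 sites each, edited at 2.85% and 3.69% in total RNA, while the YTHDF3-ADAR table listed LRRC14 with 5 sites and did not list PUSL1. TUG1, a long noncoding RNA, had 65, TBC1D16 63 and MFHAS1 52 sites. Of these 5 genes, 4 were in the YTHDF3-ADAR table, with 2 to 5 sites. Their total RNA was present in both lines, for example LRRC14 at 76.3 CPM in YTHDF2-ADAR and 98.8 CPM in YTHDF1-ADAR cells, and PUSL1 at 38.2 and 44.4 CPM.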
